A study of Mus musculus with 2 samples.

Results

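The C/EBP motifs of the deposited matrices are the 5 rows named CEBPA, CEBPB, CEBPD, CEBPE and CEBPG, chosen by name from 579 transcription factor motifs. They were followed across single cells of whole wild-type mouse retina at stage E14.5, a time at which dividing progenitors are producing ganglion cells and other early neurons. Accessibility was measured with the 10x Genomics droplet assay in 2 replicate libraries of 1 group, with no other genotype, treatment or stage. The labels do not say whether the libraries came from separate animals or litters, so the SDs below give the difference of 1 library from the other and may hold no biological variation. CEBPA was singled out because earlier results of these data showed it high in progenitor-like cells. Its level there is given as a description and supports nothing. All other class values come from the same cells' counts and are descriptions too.

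C/EBP proteins are basic leucine zipper factors that bind DNA as dimers, with one another or with related zipper proteins, and recognise closely similar sites. CEBPA is best known for liver, fat and myeloid cell differentiation, where it also restrains proliferation. CEBPB and CEBPD act in inflammation and early fat cell differentiation, and CEBPE in granulocyte maturation. CEBPG lacks a conventional activation domain and works mainly as a dimer partner. A motif count is not the amount of any of these proteins. Each transposase cut inside a peak added to the count of each motif that the peak contains, so a count measures how open all peaks with the pattern were, and factors with like patterns share counts.

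The libraries held 2422 barcodes in replicate 1 and 3033 in replicate 2, with 3373212147 and 3932721221 motif counts in all. A cell was kept where its barcode had at least 300000 motif counts and more than the same barcode had in the other library. This kept 890 cells (36.7% of barcodes, 98.3% of counts) of replicate 1 and 1051 cells (34.7% of barcodes, 97.3% of counts) of replicate 2, with medians of 3519151 and 3523871 counts. At the threshold, the nearest totals were 309159 above and 299193 below in replicate 1, and 300520 and 290175 in replicate 2. In all, 1828 barcodes occurred in both libraries, and 872 kept cells of replicate 1 and 925 of replicate 2 carried such a barcode. The kept copy was the deeper one, by a median factor of 56.5 and 127.

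The 5 names stood for only 3 different sets of counts. CEBPB and CEBPE had equal counts in 890 of 890 kept cells of replicate 1 and 1051 of 1051 of replicate 2, and in every other barcode as well. The same held for CEBPD and CEBPG. The files therefore cannot tell CEBPB from CEBPE or CEBPD from CEBPG, and each pair is treated below as 1 measurement under 2 names. Such identity was not particular to this family, since 23 groups, holding 59 of the motifs, shared their counts in this way over all kept cells.

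The CEBPD/CEBPG count was nested in the CEBPB/CEBPE count. It did not exceed it in any kept cell of either library, nor in any of the remaining barcodes. Summed over kept cells, CEBPD made up 61.2% of CEBPB counts in replicate 1 and 61.1% in replicate 2. CEBPD was lower by at least 2 counts in every kept cell and by as many as 580 and 377. CEBPA did not contain the other patterns in this way. CEBPB was at or below CEBPA in 843 cells of replicate 1 (94.7%) and 988 of replicate 2 (94.0%), and above it in the rest, by up to 48 and 36 counts.

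**Figure D1:**
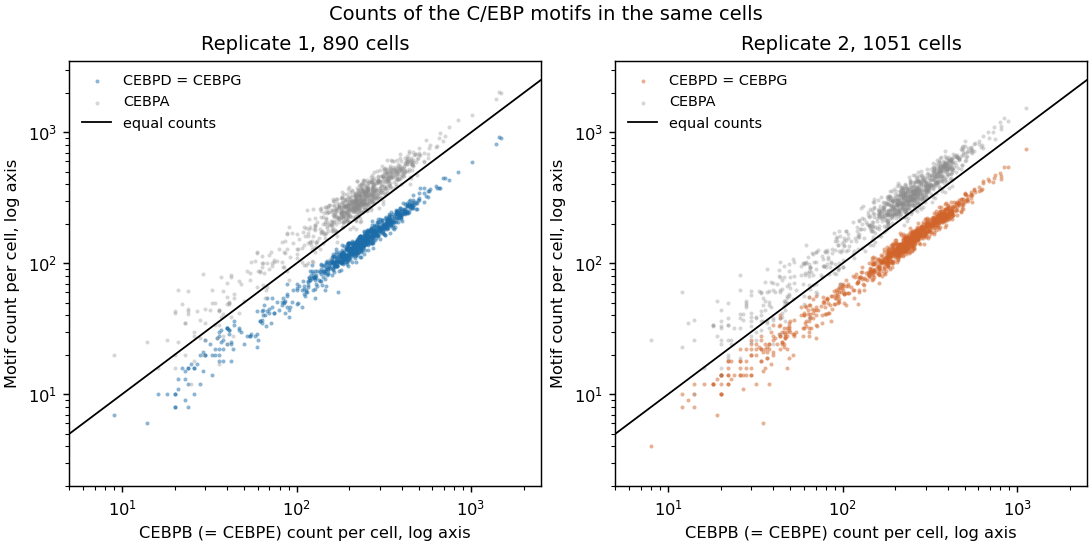
Counts of CEBPD/CEBPG (coloured) and of CEBPA (grey) against those of CEBPB/CEBPE on log axes, 1 point of each per kept cell, 1 panel per library, with the line of equal counts. All CEBPD/CEBPG points lie below the line, while CEBPA points lie on or above it in 94.7% and 94.0% of cells.

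All 3 patterns were rare. CEBPA (matrix identifier MA0102.3 in the files) had a mean of 318 counts per cell in replicate 1 and 317 in replicate 2, or 0.851 and 0.865 per 10000 motif counts of the cell (0.858 ± 0.0096, SD, n = 2). CEBPB (MA0466.2) and CEBPE (MA0837.1) had 238 and 234 counts per cell, or 0.641 and 0.643 per 10000 (0.642 ± 0.0015). CEBPD (MA0836.1) and CEBPG (MA0838.1) had 145 and 143 counts, or 0.391 and 0.393 per 10000 (0.392 ± 0.0011). The order was the same in both libraries, with gaps far wider than the difference between libraries. The median motif stood at 4.12 and 4.11 per 10000, so every member was among the rarer motifs. CEBPA ranked 519 and 516 from the most frequent of 579, CEBPB/CEBPE 537 and 535, and CEBPD/CEBPG 556 and 557.

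No kept cell had a count of 0 for any member. The share of CEBPA ran over cells from 0.683 (the 5th percentile) to 1.03 (the 95th) per 10000 in replicate 1 and from 0.681 to 1.04 in replicate 2. The corresponding ranges were 0.510 to 0.777 and 0.503 to 0.788 for CEBPB/CEBPE, and 0.291 to 0.497 and 0.286 to 0.511 for CEBPD/CEBPG. These ranges overlapped between CEBPA and CEBPB/CEBPE in both libraries, and between CEBPB/CEBPE and CEBPD/CEBPG in replicate 2 but not in replicate 1. Part of this spread is counting noise, taken here as Poisson noise, in which each count is independent. Whether counts were independent was not tested. The coefficient of variation (CV) in excess of that noise was 11.1% and 10.5% for CEBPA, 10.8% and 11.0% for CEBPB/CEBPE and 12.6% and 14.3% for CEBPD/CEBPG, against 6.19% and 6.27% for the median motif. Rare motifs vary more in general, and against a smooth trend of log2 CV on mean count the members deviated by between −0.13 and 0.11. The spread of all motifs about this trend was not computed, so whether such deviations are usual cannot be said. Under the Poisson assumption, the excess made up 70.7% and 65.1% of the variance of CEBPA. It made up 62.8% and 60.2% of that of CEBPB/CEBPE and 58.3% and 60.6% of that of CEBPD/CEBPG.

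Cells were ordered by 15 lists of motifs, each standing for a cell class or a promoter type, with the cell's depth regressed out of the score. The top 25% of cells by a score were set against the bottom 25%, 222 cells each in replicate 1 and 262 each in replicate 2. These are ranges of a continuous score and not cell types, and they overlap: 41.4% and 38.5% of the cells highest for the SOX list were also among the highest for the TEAD list. SOX factors such as SOX2 and SOX9 maintain retinal progenitors, and TEAD factors carry the growth signal of the Hippo pathway. A motif is called higher or lower below where its log2 ratio of mean shares was at least 0.05 in size and of 1 sign in both libraries.

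CEBPA was higher in SOX-high cells, and the other members were not. It stood at 0.878 per 10000 in SOX-high cells against 0.821 in SOX-low cells of replicate 1, and at 0.895 against 0.832 in replicate 2. The log2 ratios were 0.097 and 0.10 (0.10 ± 0.0059, SD, n = 2). Over all motifs outside the list, 24.6% were called higher and 24.0% lower in this contrast, so a call alone is common. CEBPA ranked 59 and 49 from the top of 579. CEBPB/CEBPE were called lower, with 0.626 against 0.651 per 10000 in replicate 1 and 0.632 against 0.659 in replicate 2, and log2 ratios of −0.056 and −0.059 (−0.057 ± 0.0022). CEBPD/CEBPG had 0.385 against 0.396 and 0.383 against 0.401, with log2 ratios of −0.044 and −0.068, the first of which did not reach the limit for a call. Among the 126 kept cells of replicate 2 whose barcode is absent from replicate 1, which are shallow (median total 529883), the SOX log2 ratio was 0.20 for CEBPA, 0.049 for CEBPB/CEBPE and 0.00030 for CEBPD/CEBPG. CEBPB/CEBPE thus had the opposite sign in these cells. Over all barcodes, kept or not, the values in the same order were 0.14, −0.041 and 0.041.

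The contrast by TEAD score gave CEBPA the same direction. Its share was 0.874 per 10000 in TEAD-high cells against 0.811 in TEAD-low cells of replicate 1, and 0.899 against 0.811 in replicate 2, with log2 ratios of 0.11 and 0.15 (0.13 ± 0.028). It ranked 24 and 6 of 579, where 21.2% of motifs were called higher and 22.3% lower. CEBPB/CEBPE were called lower, with 0.625 against 0.653 and 0.635 against 0.660 per 10000 and log2 ratios of −0.064 and −0.057. CEBPD/CEBPG were not called, at 0.389 against 0.395 and 0.394 against 0.400, with log2 ratios of −0.022 and −0.019. In the 126 cells with a barcode of replicate 2 alone the TEAD log2 ratio was 0.28 for CEBPA, −0.043 for CEBPB/CEBPE and 0.034 for CEBPD/CEBPG. Another progenitor list, of homeodomain motifs such as RAX2 and LHX9, gave CEBPA log2 ratios of 0.12 and 0.15 and CEBPB/CEBPE −0.061 and −0.054, where 26.2% of motifs were called higher and 27.6% lower. CEBPD/CEBPG had −0.029 and −0.068 and were not called. This list shares cells with the others: 55.0% of SOX-high cells in both libraries were also among the highest for it.

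In each of the 3 progenitor contrasts CEBPA was thus called higher, CEBPB/CEBPE were called lower, and CEBPD/CEBPG were below 0 without a call. For the SOX and homeodomain lists, the missing CEBPD/CEBPG call came from replicate 1 alone (−0.044 and −0.029). In replicate 2 CEBPD/CEBPG had −0.068 for each of these lists, lower than CEBPB/CEBPE at −0.059 and −0.054. The differences were small beside the spread over cells. In replicate 1 the middle 50% of SOX-high cells had 0.816 to 0.950 CEBPA counts per 10000, against 0.753 to 0.884 in SOX-low cells. A share of 75.7% of SOX-high cells of replicate 1 and 69.8% of replicate 2 lay above the median SOX-low cell for CEBPA, against 34.7% and 31.7% for CEBPB/CEBPE and 35.1% and 34.0% for CEBPD/CEBPG. For the TEAD contrast these shares were 71.6% and 78.2% for CEBPA, 35.1% and 34.7% for CEBPB/CEBPE, and 46.8% and 46.2% for CEBPD/CEBPG.

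Between the extremes CEBPA moved step by step. The 2 middle groups of cells by SOX score, from low to high, had 0.850 and 0.856 CEBPA counts per 10000 in replicate 1 and 0.860 and 0.873 in replicate 2, between the values of the SOX-low and SOX-high cells. By TEAD score the same groups had 0.850 and 0.871 in replicate 1 and 0.869 and 0.880 in replicate 2. CEBPB/CEBPE went down from group to group by both scores in replicate 1, with 0.648 and 0.639 in the middle groups by SOX score. In replicate 2 the middle groups did not separate by SOX score, both at 0.641. CEBPD/CEBPG showed no such order in replicate 2, with 0.392 and 0.396 in the middle groups by SOX score.

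**Figure D2:**
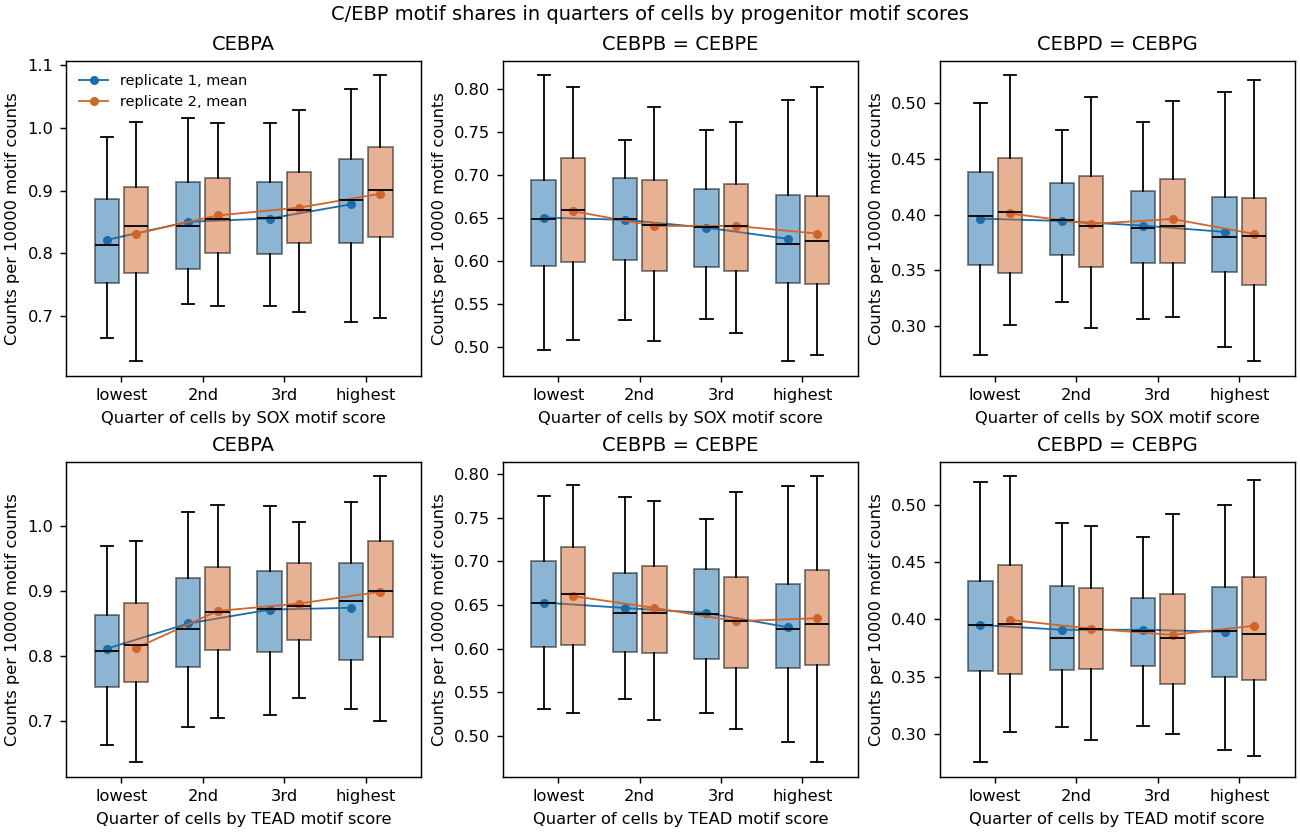
Mean share of CEBPA, CEBPB/CEBPE and CEBPD/CEBPG, in counts per 10000 motif counts, over 4 groups of cells ordered by SOX or TEAD score from low to high, 1 line per library, with boxes for the middle 50% of cells, a bar at the median and whiskers from the 5th to the 95th percentile. CEBPA climbs to 0.878 and 0.895 in SOX-high cells and to 0.874 and 0.899 in TEAD-high cells, while CEBPB/CEBPE end below their start.

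Cells high for both progenitor scores were also set against cells low for both. The difference was then wider than by either score alone for CEBPA and CEBPB/CEBPE, but for CEBPD/CEBPG only in replicate 1. How far motifs at large widened in this contrast was not computed. Replicate 1 had 92 cells high for SOX and TEAD and 122 low for both, and replicate 2 had 101 and 146. CEBPA stood at 0.871 against 0.799 per 10000 and at 0.909 against 0.804, with log2 ratios of 0.13 and 0.18. CEBPB/CEBPE had log2 ratios of −0.13 and −0.063, and CEBPD/CEBPG −0.085 and −0.028. The size for these members differed by more than 1.5 times between the libraries, while the sign was the same.

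Depth and promoter motifs moved with the same contrasts. SOX-high cells had a median total 1.20 times that of SOX-low cells in replicate 1 and 1.01 times in replicate 2, and TEAD-high cells 1.13 and 1.03 times that of TEAD-low cells. Over 4 groups of cells by depth alone, CEBPA shares ran from 0.847 in the shallowest to 0.859 in the deepest of replicate 1 and from 0.854 to 0.882 in replicate 2. Within 3 groups by depth, from shallow to deep, its SOX log2 ratios were 0.10, 0.097 and 0.084 in replicate 1. In replicate 2 they were 0.17, 0.10 and 0.070. Its TEAD log2 ratios were 0.085, 0.12 and 0.073 in replicate 1 and 0.21, 0.097 and 0.099 in replicate 2. The 16 motifs of GC-rich promoters (SP, KLF, EGR and NRF1) had a median log2 ratio of −0.080 and −0.078 in SOX-high over SOX-low cells and −0.049 and −0.051 in TEAD-high over TEAD-low cells. With cells split into 3 groups by promoter score and compared within each, the mean SOX log2 ratio was 0.079 and 0.091 for CEBPA, −0.033 and −0.030 for CEBPB/CEBPE and −0.026 and −0.037 for CEBPD/CEBPG. The mean TEAD log2 ratio was then 0.083 and 0.13 for CEBPA, −0.033 and −0.034 for CEBPB/CEBPE and 0.0014 and 0.0017 for CEBPD/CEBPG. As a mean over the 3 groups, CEBPA thus stayed past the limit of 0.05 in both contrasts and libraries, and CEBPB/CEBPE in neither. In the single groups, CEBPB/CEBPE had SOX log2 ratios of −0.080 and −0.059 at the highest promoter scores. Their SOX values were −0.0052 and −0.038 in the lowest group, and −0.014 and 0.0077 in the middle one. For TEAD, CEBPB/CEBPE ran over the groups from −0.054 to 0.0064 in replicate 1 and from −0.063 to −0.015 in replicate 2.

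Of the lists for neurons and other cells, the members were called in few. In cells high for motifs of pigment epithelium factors (MITF and its relatives), CEBPA was called lower, at 0.822 against 0.868 per 10000 and 0.841 against 0.882, with log2 ratios of −0.079 and −0.069, where 20.3% of motifs were called lower and 20.3% higher. In cells high for GC-rich promoter motifs, CEBPB/CEBPE were called higher, at 0.664 against 0.624 and 0.660 against 0.635, with log2 ratios of 0.090 and 0.055, where 21.0% of motifs were called higher and 22.2% lower. CEBPA had −0.040 and −0.086 there and CEBPD/CEBPG 0.039 and 0.048. Calls were common in both contrasts, so a member with a call is no departure from the motifs at large.

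In cells high for CRX/OTX motifs, which mark photoreceptor precursors, CEBPB/CEBPE had 0.654 against 0.633 per 10000 in replicate 1 and 0.664 against 0.632 in replicate 2, with log2 ratios of 0.047 and 0.072. CEBPD/CEBPG had log2 ratios of 0.040 and 0.085, and CEBPA −0.013 and 0.0085. None was called, where 4.51% of motifs were called higher and 3.47% lower. Cells high for ONECUT motifs, of horizontal and ganglion cell factors, had CEBPA at −0.040 and −0.035, CEBPB/CEBPE at 0.039 and 0.050 and CEBPD/CEBPG at 0.056 and 0.037 on the log2 scale, all short of a call in at least 1 library, with 7.29% of motifs called higher and 9.03% lower.

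Neurogenic and ganglion cell lists gave no call for any member. In cells high for motifs of neurogenic factors such as NEUROD1, the log2 ratios were −0.043 and −0.020 for CEBPA, 0.014 and 0.020 for CEBPB/CEBPE and 0.035 and 0.045 for CEBPD/CEBPG, with 9.58% of motifs called higher and 5.92% lower. In cells high for POU4F motifs, of factors for ganglion cell differentiation, CEBPA had −0.054 and −0.035 and CEBPB/CEBPE −0.0063 in both libraries, with 6.08% of motifs called higher and 9.38% lower. CEBPD/CEBPG had 0.013 and 0.0037 there. For CEBPA, 30.2% of POU4F-high cells of replicate 1 and 38.5% of replicate 2 lay above the median POU4F-low cell.

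Myeloid cells are where C/EBP factors are best known outside liver and fat. Cells high for motifs of microglial and myeloid factors (SPI1, RUNX and IRF8) had small log2 ratios for every member, and none was called. The log2 ratios were 0.017 and 0.025 for CEBPA, 0.021 and 0.035 for CEBPB/CEBPE and 0.011 and 0.036 for CEBPD/CEBPG. In that contrast 0.874% of all motifs were called higher and 1.22% lower. The files hold motifs and not genes, so the class of any cell could not be checked against expressed markers.

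The last 5 lists gave no call for any member. In cells high for E2F motifs, which mark the cell cycle, the log2 ratios were 0.051 and 0.015 for CEBPA, 0.064 and 0.037 for CEBPB/CEBPE and 0.019 and −0.011 for CEBPD/CEBPG, with 13.8% of motifs called higher and 4.9% lower. CEBPA was below 0 in both libraries for endothelial and erythroid motifs (−0.039 and −0.043), for AP-1 motifs (−0.031 and −0.028) and for CREB/ATF motifs (−0.036 and −0.041). CEBPB/CEBPE had 0.020 and 0.0034, −0.023 and −0.014, and 0.049 and 0.011 for the same lists. The motifs called higher and lower were 2.8% and 0.874% for the endothelial, 6.18% and 5.3% for the AP-1 and 15.4% and 2.8% for the CREB/ATF list. For the related leucine zipper motifs described below, with 0.873% called higher and 0.349% lower, the members lay between −0.061 and 0.018.

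**Figure D3:**
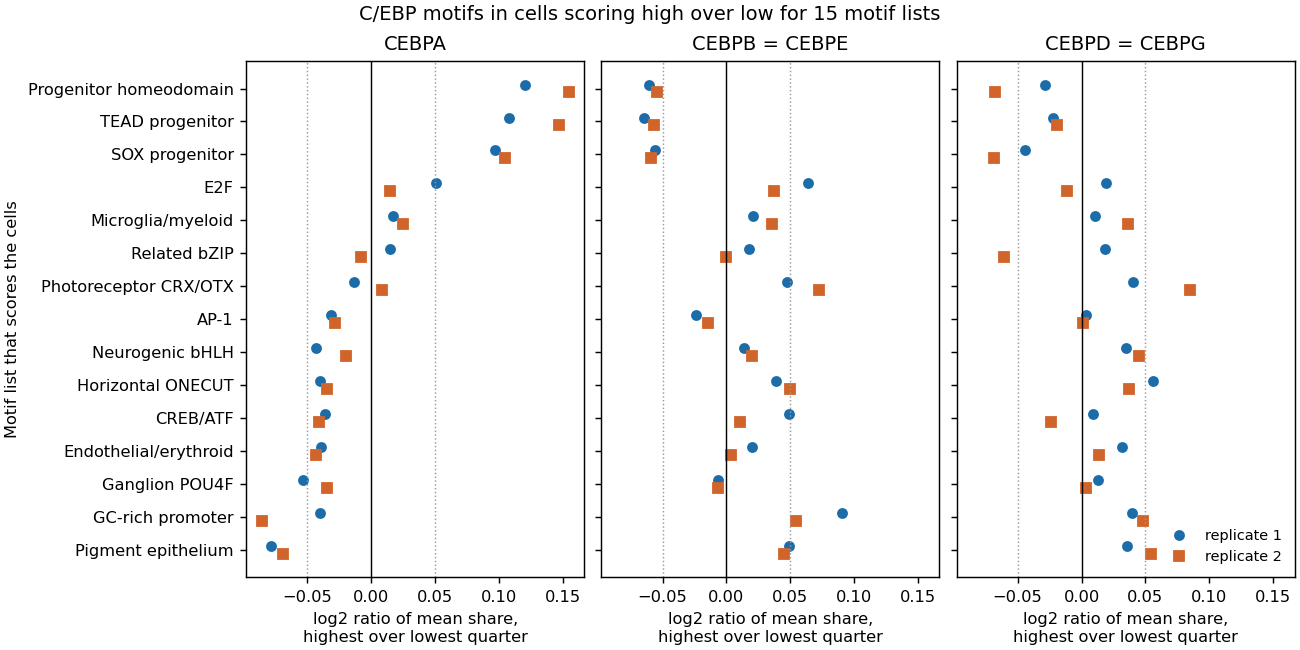
Log2 ratio of mean share in cells high over cells low for each of 15 motif lists, 1 point per library, for CEBPA, CEBPB/CEBPE and CEBPD/CEBPG, with lines at 0.05 and −0.05. CEBPA, singled out for its level in progenitor-like cells, has values between 0.097 and 0.15 in the 3 progenitor lists, whose high cells overlap. CEBPB/CEBPE are below −0.05 in the same lists.

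Ranked by the share in the high cells of each list, relative to all kept cells, CEBPA was highest in cells high for progenitor homeodomain motifs (log2 0.061 ± 0.016, SD, n = 2), followed by SOX-high (0.047 ± 0.0032) and TEAD-high cells (0.046 ± 0.012), whose order did not separate. E2F-high cells came next at 0.010 ± 0.014. POU4F-high cells were lowest at −0.053 ± 0.0034. Of the 14 pairs of neighbours in this order, 9 overlapped between libraries and 5 did not. CEBPB/CEBPE were highest in cells high for GC-rich promoter (0.043 ± 0.0093) and CRX/OTX motifs (0.038 ± 0.012) and lowest in SOX-high cells (−0.029 ± 0.0066), with 13 of 14 neighbours overlapping. CEBPD/CEBPG were highest in cells high for neurogenic motifs (0.034 ± 0.011) and lowest in SOX-high cells (−0.032 ± 0.0087), and all 14 neighbours overlapped. SOX-high cells were therefore near the top of the order for CEBPA and at the bottom for the other four names.

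Across cells, CEBPA did not move with the rest of its family. Pearson's r of depth-adjusted log2(counts per 10000 + 1) between CEBPA and CEBPB/CEBPE was 0.025 over the 890 cells of replicate 1 and 0.048 over the 1051 of replicate 2. With CEBPD/CEBPG it was 0.018 and 0.039. Over all 167331 pairs of motifs the median r was 0.0013 and 0.0037 and the middle 90% of pairs ran from −0.35 to 0.38 and from −0.34 to 0.38, so the r of CEBPA with its family lay near the middle of all pairs. The points of each r share a library, its depth range and its peaks, and cells are not replicates.

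CEBPB/CEBPE and CEBPD/CEBPG were correlated at 0.766 and 0.774, but the second count is contained in the first. The counts of CEBPB left after subtracting CEBPD averaged 92.2 and 90.9 per cell and had an r of 0.034 and −0.019 with CEBPD. They had an r of 0.017 and 0.030 with CEBPA. With the shared counts taken out, r within the family lay between −0.019 and 0.048. This remainder had log2 ratios of −0.074 and −0.045 in SOX-high over SOX-low cells and −0.13 and −0.12 in TEAD-high over TEAD-low cells. CEBPD itself had −0.022 and −0.019 for TEAD, so the lower CEBPB/CEBPE share in TEAD-high cells lay mostly in the counts that CEBPD does not have. In cells high over low for GC-rich promoter motifs the remainder had 0.17 and 0.065.

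Related leucine zipper motifs had r with CEBPA between −0.11 and 0.081. HLF, DBP and TEF are PAR zipper factors of circadian and liver gene control, NFIL3 is a repressor that binds like sites, and ATF4 is a stress response factor that can pair with C/EBP proteins. The r of CEBPA was 0.024 and 0.0094 with HLF, 0.040 and −0.039 with DBP, 0.042 and 0.062 with TEF, 0.081 and 0.065 with NFIL3 and −0.11 and −0.0089 with ATF4. The composite motif of CEBPA with DDIT3, a stress-induced C/EBP partner, had an r of −0.0034 and −0.027 with CEBPA. That motif, named Ddit3::Cebpa in the files, stood at 0.747 and 0.770 per 10000, close to CEBPA in level. Its log2 ratio in SOX-high over SOX-low cells was 0.013 and −0.0092, against 0.097 and 0.10 for CEBPA.

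**Figure D4:**
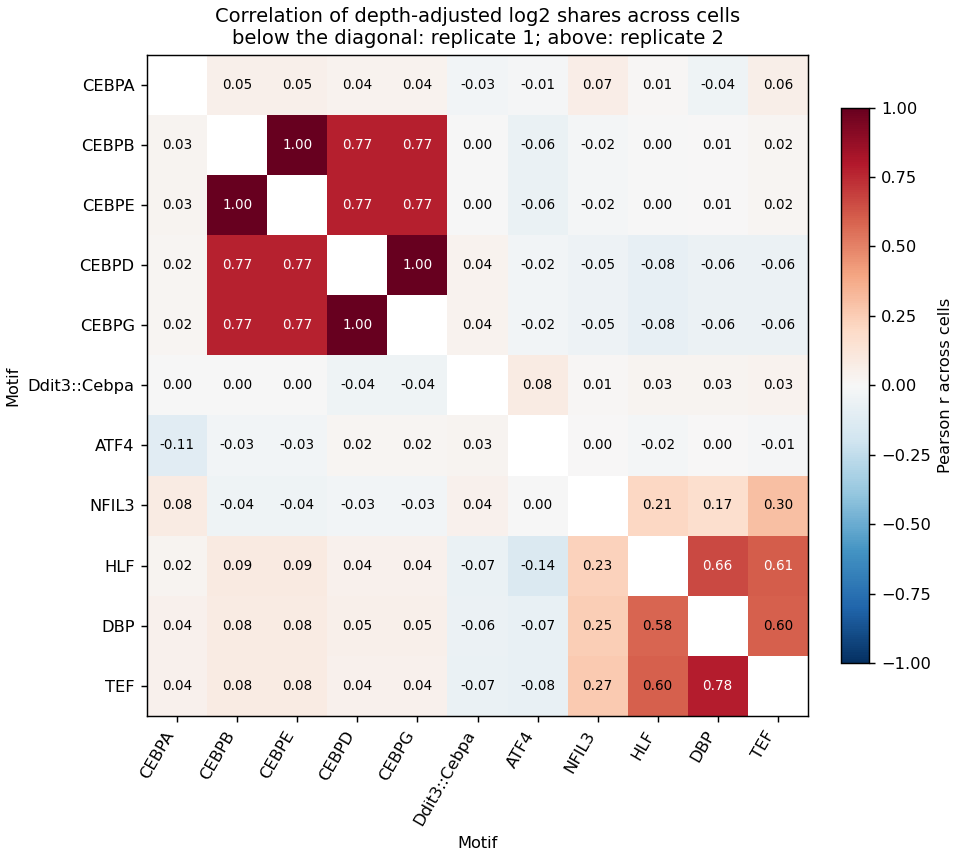
Pearson's r across kept cells between the C/EBP motifs and related leucine zipper motifs, with replicate 1 below the diagonal and replicate 2 above it. CEBPA has r near 0 with every other member (0.018 to 0.048), whereas CEBPB/CEBPE with CEBPD/CEBPG (0.766 and 0.774), which share counts, stand out.

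CEBPA had higher r with some motifs of other families than with its own. The highest was 0.344 in replicate 1 and 0.357 in replicate 2. Both lay below the 95th percentile of all motif pairs (0.385 and 0.375), so even the closest positive motifs were within the usual range. Of the 574 motifs outside the family, 54 (9.41%) had an r of at least 0.2 with CEBPA in both libraries and 17 (2.96%) had −0.2 or less. The median motif had 62 and 44 such partners, so their number was not high. The r values over the 574 motifs matched between libraries, with an r of 0.90 across motifs, which are not independent. The closest positive motifs, ranked by the lower r of the 2 libraries, were Nobox, an oocyte homeodomain factor (0.302 and 0.340), Sox5, a SOX factor outside the SOX list (0.294 and 0.306), and MSX1, a homeodomain factor whose counts equal those of MSX2 and Msx3 (0.292 and 0.332). LIN54, which binds promoters of cell cycle genes, followed with 0.291 and 0.298, then the forkhead motifs FOXC1 (0.284 and 0.290) and Foxj2 (0.344 and 0.283).

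Further partners above 0.2 included the retinal progenitor homeodomain motifs RAX2 (0.261 and 0.334) and LHX9 (0.248 and 0.316). Pou5f1::Sox2 (0.274 and 0.293) and TEAD3 (0.251 and 0.255) were also among them, and so were the interferon-response motifs IRF1 (0.259 and 0.261) and IRF2 (0.220 and 0.215). RAX2 had the same r as PRRX1 and Prrx2 in both libraries, so its values are not particular to it. Homeodomain motifs outside the progenitor list were partners too, such as EN1 (0.282 and 0.314) and UNCX (0.263 and 0.337). The homeodomain partners were therefore not limited to retinal progenitor factors. Over all 574 motifs, r with CEBPA was above 0 in both libraries for 41.1% and below 0 for 44.8%. By list, 9 of 9 SOX motifs, 4 of 4 TEAD motifs and 6 of 6 progenitor homeodomain motifs had a positive r with CEBPA in both libraries. Conversely 16 of 16 promoter motifs, 3 of 3 POU4F motifs, 3 of 3 ONECUT motifs and 4 of 4 pigment epithelium motifs had a negative one.

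Among the motifs most opposed to CEBPA were NR4A2, an orphan nuclear receptor of dopamine neurons (−0.298 and −0.311), and the zinc finger motifs RREB1 (−0.295 and −0.338) and ZNF263 (−0.285 and −0.346). With the promoter score regressed out, the positive motifs named for CEBPA kept r between 0.208 and 0.318 and these opposed ones between −0.246 and −0.273. In SOX-high over SOX-low cells, the log2 ratios of FOXC1 (0.11 in both libraries), MSX1 (0.10 and 0.11) and Nobox (0.093 and 0.095) were close to that of CEBPA. LIN54 (0.055 and 0.051), Sox5 (0.044 in both) and Foxj2 (0.033 and 0.032) had smaller ones.

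CEBPB/CEBPE and CEBPD/CEBPG had no partner outside the family at that limit: 0 of 574 motifs (0.0%) had an r of 0.2 or more, or of −0.2 or less, in both libraries. The highest for CEBPB/CEBPE were HOXC13, a hair follicle homeodomain factor (0.177 and 0.188), OTX1, a head and eye homeodomain factor (0.140 and 0.149), EGR3 (0.187 and 0.132) and EGR4 (0.211 and 0.128), immediate early zinc fingers, ZBTB33, which binds methylated CpG sites (0.198 and 0.131), and HINFP, an activator of histone H4 genes (0.216 and 0.126). All 6 had log2 ratios below 0 in SOX-high over SOX-low cells in both libraries. The lowest were the nuclear receptors NR2C2 (−0.213 and −0.162) and NR2F1 (−0.135 and −0.137) and the ciliary gene factors Rfx1 (−0.153 and −0.169) and RFX2 (−0.139 and −0.135). Here 4 of 4 TEAD motifs, 6 of 6 progenitor homeodomain motifs and 7 of 9 SOX motifs had a negative r in both libraries, and 13 of 16 promoter and 3 of 3 CRX/OTX motifs a positive one, the reverse of CEBPA for the progenitor and promoter lists. Over all 574 motifs, 34.8% had an r above 0 with CEBPB/CEBPE in both libraries and 41.1% below 0. The profile over motifs was less repeatable than that of CEBPA, with an r of 0.71 between libraries.

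For CEBPD/CEBPG the values were smaller again and the profile repeated least, with an r of 0.43 between libraries. The highest were TCF3, an E protein that pairs with neurogenic factors (0.128 and 0.0953), and MSC, whose counts equal those of MYF6 (0.0915 and 0.0929). TFAP2B, a factor of amacrine and horizontal cells, had 0.0866 and 0.0990, Neurog1 0.0789 and 0.0803, RHOXF1 0.0786 and 0.112 and PITX3 0.0783 and 0.116. The lowest were MAF::NFE2 (−0.11 and −0.10) and the homeodomain motifs Shox2 (−0.0848 and −0.0946), LHX9 (−0.0836 and −0.0932) and ISX (−0.0821 and −0.0970). Values of this size in sparse counts rank motifs but show no relation. Over all 574 motifs, r with CEBPD/CEBPG was above 0 in both libraries for 32.8% and below 0 for 31.5%.

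**Figure D5:**
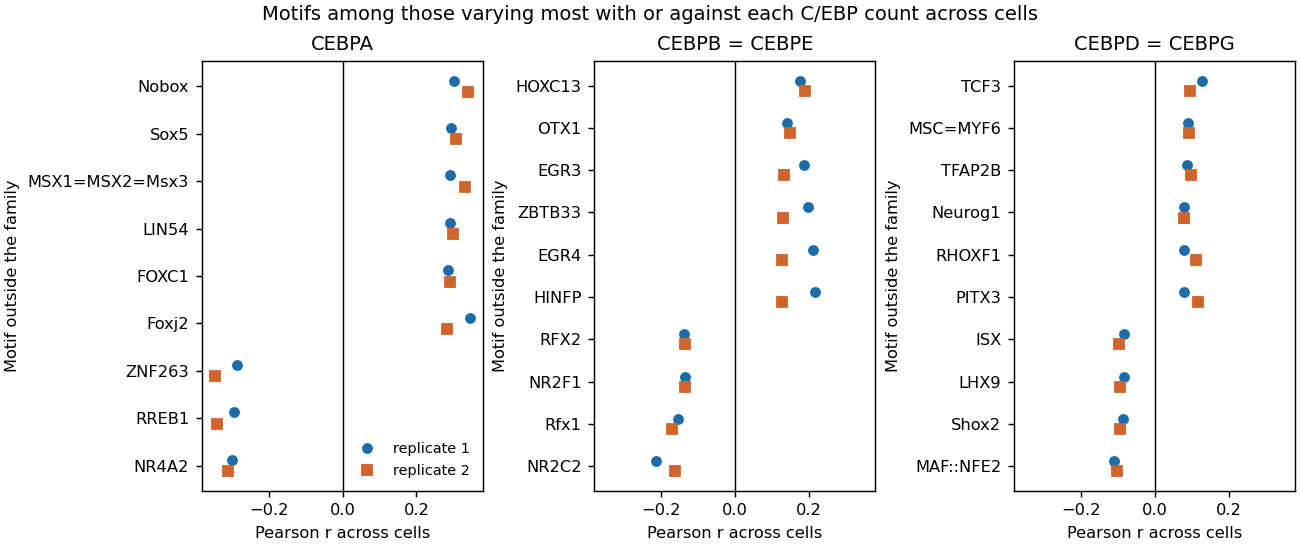
Pearson's r across kept cells between each C/EBP pattern and the motifs named for it, 1 point per library. For CEBPA the named motifs lie between 0.283 and 0.344 or between −0.346 and −0.285, while those of CEBPD/CEBPG lie within 0.128 of 0.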

How the data were processed

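The deposited matrices hold whole-number counts of motifs per cell barcode, written by software version 1.1.0 per the file headers. Per the submitters' processing notes, Cell Ranger and mouse build mm10 were used. How peaks and motifs were called is not given in the sources used. No doublet caller was run. Counts were divided by the cell's total and averaged over kept cells of each library, then over libraries. List scores are means of log2(counts per 10000 + pseudocount of 1), scaled, with log10 total regressed out. The members, lists and the cell filter were chosen with earlier results of these data known. Of listed motifs, those found were used. Related motifs were named for each member as the 6 with the highest lower r of the 2 libraries and the 4 with the lowest higher r, outside the family. A motif this rule names for CEBPA is not reported here. No test was made, since the libraries form 1 group and the classes come from the same counts. Shares of cells and log2 ratios carry no counting interval. The log2 ratio step was checked on simulated Poisson counts. The CV and r recovered there were recorded but held to no limit. Alternatives covered cells kept, depth, promoter score, scaling, averaging, class size and each replicate. Python 3.11.15, numpy 2.4.6, scipy 1.17.1 and pandas 2.3.3 were used.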

Additional observations from a re-analysis of the deposited data

How the results depend on the processing

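The higher share of CEBPA in SOX-high than SOX-low cells (log2 ratio 0.10) and in TEAD-high than TEAD-low cells (0.13) kept its sign in all 13 settings tried for each; the mean of the other four did not for SOX. For SOX, CEBPA had 0.14 with all barcodes, 0.085 in cells thinned to 300000 counts, 0.085 within 3 groups by promoter score, 0.088 centred on the cell's median motif, 0.046 as a mean of log2(counts per 10000 + 1) and 0.085 between the top and bottom of 3 groups of cells. In these 6 settings the other four (−0.057) had −7.0e-05, −0.075, −0.031, −0.070, −0.019 and −0.041. For TEAD, CEBPA had 0.058 on the mean log2 scale, and the other four (−0.041) had −0.11 with all barcodes, −0.046 without the deepest 5% of cells, −0.020 thinned, −0.016 within 3 groups by promoter score, −0.053 centred and −0.015 on the mean log2 scale. Ratios on the mean log2 scale are smaller by construction, since 1 is added to shares near or below 1; the cause of the other changes was not tested. CEBPD kept its negative sign in 11 of 13 settings for SOX and 10 of 13 for TEAD, and CEBPG in 11 of 13 for each. Each motif was thinned by its own draw, and for TEAD this gave CEBPD 0.047 and CEBPG −0.046 from equal counts, so thinned values of this size cannot be read for their sign.

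With 1 replicate left out, CEBPA had 0.097 to 0.10 for SOX and 0.11 to 0.15 for TEAD, the other four −0.064 to −0.050 and −0.043 to −0.038, the mean share of the members was 0.583 to 0.587 per 10000 (0.585 over both), the excess CV 11.6% to 12.2% (11.9% over both), the mean r of CEBPA with the others 0.022 to 0.043 (0.032 over both) and the motifs called higher for SOX 161 to 164. That last count was 140 over both, 54 with all barcodes and 39 at a log2 limit of 0.1. Motifs called higher and lower numbered 140 and 137, but 112 and 165 after centring and 104 and 58 within 3 groups by promoter score. The excess CV was 83.2% with all barcodes and 10.3% with a minimum of 1000000 counts, where the mean r was 0.016.

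An alternative chosen after seeing the data used only the 126 kept cells of replicate 2 whose barcode is absent from replicate 1, since replicate 1 has 18 such cells. These cells are shallow, with a median total of 529883. CEBPA had 0.20 for SOX and 0.28 for TEAD, and the other four 0.025 and −0.0044. CEBPB and CEBPE turned to 0.049 for SOX. The mean share was 0.594 per 10000, the excess CV 19.1% and the mean r 0.060. No paired analysis was possible because the labels give 1 group of samples. Rare motifs limit precision: a cell thinned to 300000 counts held a mean of 25.4 CEBPA counts in replicate 1 and 25.8 in replicate 2, and ratios carry counting error besides the spread between libraries.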

Other observations

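Among the related leucine zipper motifs, HLF, DBP and TEF moved with one another. HLF and DBP had an r across cells of 0.584 in replicate 1 and 0.661 in replicate 2, HLF and TEF 0.597 and 0.608, and DBP and TEF 0.783 and 0.596. NFIL3 was less close, at 0.228 and 0.209 with HLF. The r with HLF was −0.144 and −0.018 for ATF4 and −0.067 and 0.028 for Ddit3::Cebpa. Whether these motifs share peaks was not examined here, as the files give no peaks.

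DBP differed between the libraries more than any C/EBP motif, at 0.498 per 10000 in replicate 1 and 0.628 in replicate 2 (log2 ratio −0.34), where the median motif differed by 0.021 in size. TEF had 0.440 and 0.475.

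Leaving out the lists a motif belongs to, ATF4 had the widest mean class difference of the 6 related motifs. It stood at 0.309 per 10000 in cells high for neurogenic motifs against 0.279 in cells low for them in replicate 1, and at 0.292 against 0.260 in replicate 2, with log2 ratios of 0.15 and 0.17. For POU4F the log2 ratios were 0.12 and 0.13, and for ONECUT 0.12 and 0.14. In TEAD-high over TEAD-low cells ATF4 had −0.090 and −0.060, the opposite sign to CEBPA.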
